A study of Mus musculus with 9 samples.

Results

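The genes described here are 10 granule and receptor genes of mast cells, basophils and eosinophils: Prss34, Mcpt8, Cpa3, Ms4a2, Fcer1a, Prg2, Epx, Ear1, Ear2 and Ear10. They were taken as the rows of the deposited expression table whose gene symbol equals a name on that list, 10 of 23285 genes. The choice used no expression value as a threshold, but the list was made with earlier results of these data known. The study sorted immature erythroid cells from the bone marrow of C57BL/6 mice after deletion of Trim28, the gene of a co-repressor that many zinc finger proteins recruit to chromatin, and asked how the loss affects erythroblasts. Bulk RNA sequencing was done on 9 libraries, 3 in each of 3 groups.

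KOa cells came from TRIM28(flox/flox):Mx1Cre mice, were sorted as CD71(hi)TER119+ and are labelled modestly-deleted, with 5 to 8% of the gene undeleted per the series description. KOb cells came from mice of the same genotype, were sorted as CD71(hi)TER119- and are labelled severely-deleted, with 1 to 4% undeleted. FFa control cells came from TRIM28(flox/flox) mice without the Cre transgene and were sorted as CD71(hi)TER119+. Mx1Cre is driven by an interferon-inducible promoter that is active in many cell types, and the series description gives 5 injections of poly(I:C) to switch it on, with analysis 2 weeks after the last. Whether the FFa mice also received poly(I:C), the age and sex of the mice, and whether the libraries came from separate mice are not stated in the labels. All 3 groups carry the floxed Trim28 alleles. Between KOa and FFa the transgene and the deletion differ together, and between KOb and FFa the surface gate differs as well, so these cannot be told apart.

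Mast cells and basophils are granule-bearing cells that carry the high-affinity receptor for IgE, Fc-epsilon receptor I, and store proteases in their granules for release when the receptor is cross-linked. Eosinophils store basic proteins, a peroxidase and a family of ribonucleases. In mouse bone marrow all of them arise from progenitors that share the transcription factor GATA1 and, in part, GATA2 with the erythroid lineage.

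The upstream sequences of Prss34, Mcpt8 and Cpa3 are shown because these 3 mast cell and basophil protease genes had different log2 ratios in the mutants, and those of Ear1 and Ear2 because these 2 genes are near copies of each other. Each is the stretch of 250 bases before the annotated start, 5′ to 3′ on the gene's strand, from RefSeq on GRCm38.p6, the build also called mm10. Of the 10 genes, 9 were matched in that table, all but Prg2. Capitals mark AGATAA, a core motif of GATA factors, on either strand in the first 3 sequences. They lie at chr17:25298144-25298393 on the plus strand (Prss34), chr14:56085198-56085447 on the minus strand (Mcpt8) and chr3:20242182-20242431 on the minus strand (Cpa3).
Prss34: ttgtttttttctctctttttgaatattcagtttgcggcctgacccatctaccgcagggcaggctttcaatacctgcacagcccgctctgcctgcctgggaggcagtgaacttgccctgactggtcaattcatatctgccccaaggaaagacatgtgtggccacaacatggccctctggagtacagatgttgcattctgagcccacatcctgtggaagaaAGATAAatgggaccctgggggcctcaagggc
Mcpt8: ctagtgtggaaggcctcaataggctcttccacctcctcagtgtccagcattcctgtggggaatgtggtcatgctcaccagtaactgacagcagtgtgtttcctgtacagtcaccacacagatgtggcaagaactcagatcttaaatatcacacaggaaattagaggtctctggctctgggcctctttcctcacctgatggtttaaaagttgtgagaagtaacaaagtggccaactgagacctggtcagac
Cpa3: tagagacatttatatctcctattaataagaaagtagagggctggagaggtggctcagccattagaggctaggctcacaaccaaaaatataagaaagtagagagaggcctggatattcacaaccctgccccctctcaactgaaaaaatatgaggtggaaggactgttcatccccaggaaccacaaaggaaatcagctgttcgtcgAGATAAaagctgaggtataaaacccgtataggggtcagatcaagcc
In the next pair, at chr14:43819640-43819889 on the minus strand (Ear1) and chr14:44102404-44102653 on the plus strand (Ear2), capitals mark the bases at which the genes differ where the sequences overlap.
Ear1: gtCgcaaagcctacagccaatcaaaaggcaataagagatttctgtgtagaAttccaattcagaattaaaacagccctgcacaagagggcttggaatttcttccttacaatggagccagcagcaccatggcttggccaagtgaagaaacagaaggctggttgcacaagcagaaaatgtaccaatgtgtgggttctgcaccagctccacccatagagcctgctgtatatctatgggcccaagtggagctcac
Ear2: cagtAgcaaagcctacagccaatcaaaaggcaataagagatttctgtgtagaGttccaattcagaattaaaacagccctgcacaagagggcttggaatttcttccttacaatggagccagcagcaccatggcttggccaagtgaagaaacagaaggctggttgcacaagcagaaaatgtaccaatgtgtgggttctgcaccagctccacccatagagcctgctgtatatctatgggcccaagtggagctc
The motif AGATAA was searched on both strands of 32851 promoters of this length and was present in 9.99% of them. It was found once in Prss34, at -31 from the start, once in Cpa3, at -46, once in Fcer1a, at -92, and 3 times in Ms4a2, but these letters were not in the window of Mcpt8, Epx, Ear1, Ear2 or Ear10. TTGCNNAA, a core of C/EBP sites, was in 9.56% of all promoters, and in Fcer1a (-118), Ear1 (-92), Ear2 (-90) and Ear10 (-94). GAGGAA, a core of PU.1 sites, was in 23.3% of all promoters, and in Mcpt8 (-65) and Fcer1a (-216). None of these matches overlaps another, and a match describes the sequence only. The Ear1 and Ear2 windows were identical at 246 of 248 aligned bases (99.2%).

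The deposited table gives 1 FPKM value per group, made from the 3 libraries together, so no spread between libraries can be shown and the depth is unknown. FPKM is fragments per kilobase of transcript scaled to sequencing depth, a level per length that allows genes to be set side by side. Log2 ratios, p-values and q-values are those of the authors' deposited table, the q-value being the p-value after Benjamini-Hochberg adjustment, and a gene is said to have risen or fallen where q is below 0.05. The value after ± is the standard error implied by the deposited ratio and test statistic. Trim28 itself stood at 6.64 FPKM in KOa, 4.76 FPKM in KOb and 26.0 FPKM in FFa, 25.5% and 18.3% of the FFa level in KOa and KOb. All 16 erythroid marker genes looked up were detected in every group, with summed levels of 726509, 254908 and 578319 FPKM in KOa, KOb and FFa, most of it globin. Of these 16, 2 fell in KOa and 7 in KOb, where 14.1% and 15.2% of all tested genes fell. With the deposited statistic read against a standard normal distribution 0 fell in KOa and 2 in KOb. Neutrophil genes summed to 17302, 14026 and 49800 FPKM in KOa, KOb and FFa, so transcripts of other lineages were measured in all 3 groups. Most of each sum was 1 gene, S100a8, with 14822, 12078 and 34935 FPKM in KOa, KOb and FFa.

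All 10 genes together were minor transcripts. The 5 mast cell and basophil genes summed to 17.3 FPKM in KOa, 21.1 FPKM in KOb and 30.9 FPKM in FFa, and the 5 eosinophil genes to 16.9 FPKM in KOa, 18.4 FPKM in KOb and 18.9 FPKM in FFa. Behind these sums genes were called in both directions. Prss34 fell in both mutants, Ear1 in KOa and Ear2 in KOb, while Cpa3 and Prg2 rose in both mutants and Epx in KOa. Ear1 in KOb, Ear2 in KOa, Epx in KOb, Fcer1a in KOb and Mcpt8 in both mutants did not pass the test. In a bulk sample, fewer cells of a type and less RNA per cell cannot be told apart.

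**Figure D1:**
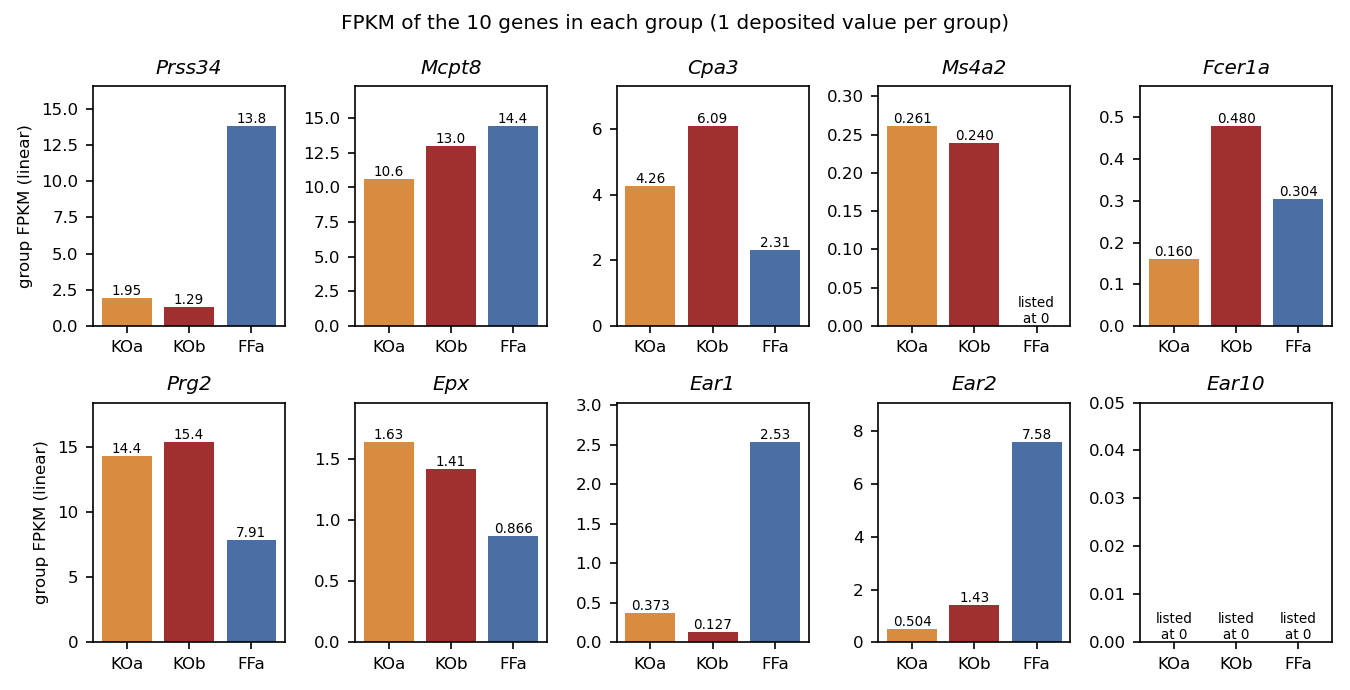
FPKM (linear axis from 0, a separate scale in each panel) of the 10 genes in KOa, KOb and FFa, each bar being the 1 deposited value of a group of 3 libraries, so no error bar can be drawn. Prss34, Ear1 and Ear2 stand highest in FFa, while Cpa3, Prg2 and Epx stand highest in a mutant group, and Ear10 is listed at 0 throughout.

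In KOa against FFa, 7 of the 10 genes were tested, of which 3 rose, 2 fell and 2 were not called. Among all 10761 genes tested in this comparison 7.99% were called higher and 14.1% lower, 22.1% in either direction. The median log2 ratio of the 7 genes was -0.44, against -0.08 over all tested genes. In KOb against FFa, 8 were tested, of which 2 rose, 2 fell and 4 were not called. The background there was 12.8% higher and 15.2% lower, 28.0% in all, of 10584 genes. The median of the 8 was 0.25, against -0.01 over all tested genes. Both comparisons use the same FFa libraries. With counts this small and directions this mixed, the median describes neither set of genes.

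**Figure D2:**
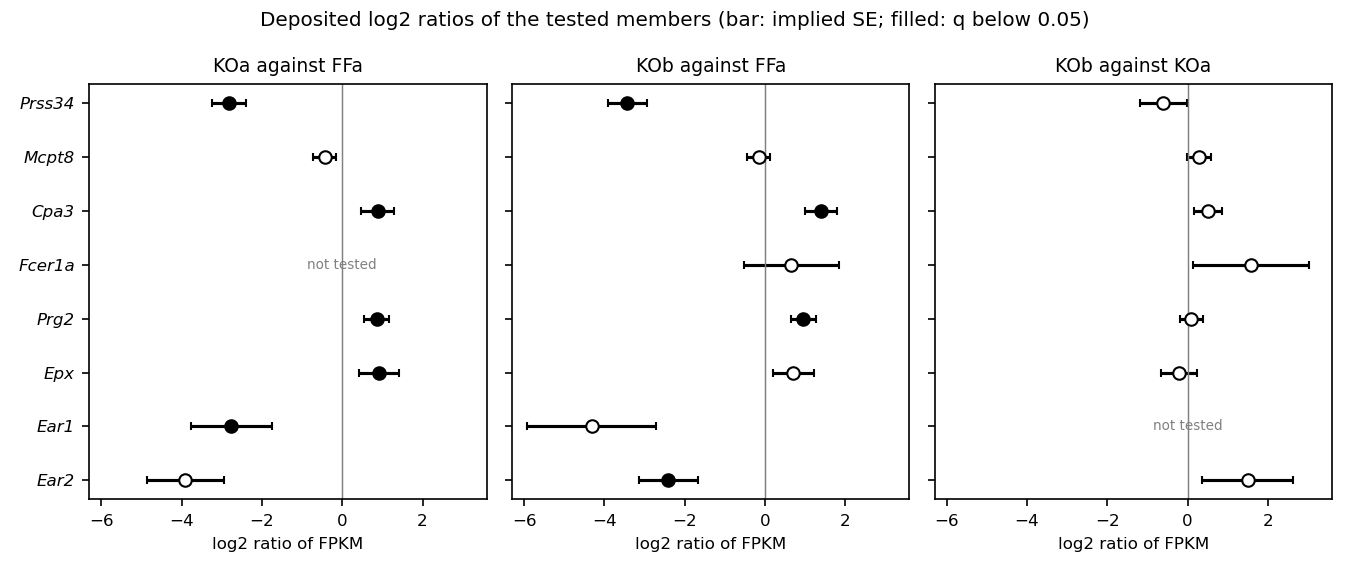
Log2 ratio of FPKM (x axis) of the 8 genes tested in at least 1 comparison, with a panel for each mutant against FFa and a further panel for KOb against KOa. Points are deposited ratios, bars the implied SE, and filled points have a deposited q below 0.05. Prss34 lies at -2.82 and -3.42 against FFa, whereas Cpa3 and Prg2 lie to the right of 0 in both mutants and no point is filled in KOb against KOa.

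Prss34 encodes mouse mast cell protease 11, a granule serine protease found mainly in basophils, and lies at chr17:25298394-25300161 (mm10). Its level was 1.95 FPKM in KOa, 1.29 FPKM in KOb and 13.8 FPKM in FFa. Both mutant groups were low and the control group was high. In the authors' deposited table Prss34 fell in KOa, with a log2 ratio of -2.82 ± 0.43 (q = 0.000619), which leaves 14.1% of the FFa level. It also fell in KOb, by 3.42 ± 0.48 on the log2 scale (q = 0.000619), to 9.32% of the FFa level. These are 7.08-fold and 10.7-fold lower levels. A q of 0.000619 is the smallest in the table, reached by every result at the smallest deposited p of 5e-05. Among all genes Prss34 ranked 6120th by FPKM in KOa and 7441st in KOb, but 2093rd in FFa. The call held in both mutants with the deposited statistic read against a standard normal distribution and with adjustment within each comparison.

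Mcpt8 encodes mouse mast cell protease 8, a granule serine protease that serves as a basophil marker in mice (chr14:56082164-56085197, mm10). It stood at 10.6 FPKM in KOa, 13 FPKM in KOb and 14.4 FPKM in FFa. The 3 levels are close, the largest of them being 1.36 times the smallest. The deposited log2 ratio was -0.44 ± 0.29 in KOa (95% interval -1.02 to 0.14, q = 0.142) and -0.15 ± 0.29 in KOb (-0.71 to 0.41, q = 0.663). Neither passed the test, and the intervals leave room for a fall of up to 1.02 on the log2 scale in KOa. The sign also depends on the scaling. Rescaling every group to its sum without globin genes adds 0.54 to all log2 ratios in KOa and 0.51 in KOb. That takes Mcpt8 to 0.10 in KOa and 0.36 in KOb. In FFa the largest entries of that sum were S100a8 (34935 FPKM) and the small RNA gene Snord34 (31436 FPKM). Centring on the median ratio of genes at FPKM 1 or more, -0.05 in KOa and 0.02 in KOb, would leave Mcpt8 below 0 in both.

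Prss34 and Mcpt8 are both basophil proteases, and in FFa they were at nearly the same level, with 0.956 FPKM of Prss34 for each FPKM of Mcpt8. That ratio was 0.183 in KOa and 0.0990 in KOb. A ratio within a group does not change with the scaling of the library. It shows unequal change of the 2 transcripts, and the difference between the 2 log2 ratios was not tested. Their transcripts are 63.5% identical and share no stretch of 50 bases, so reads of that length from one cannot match the other exactly.

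Cpa3 encodes mast cell carboxypeptidase A, an exopeptidase stored in mast cell granules and also made by basophils and by early progenitors (chr3:20215616-20242181, mm10). Its level was 4.26 FPKM in KOa, 6.09 FPKM in KOb and 2.31 FPKM in FFa. Both mutant groups were above the control. In the authors' deposited table Cpa3 rose in KOb by 1.40 ± 0.40 on the log2 scale (q = 0.000619), a 2.64-fold higher level. It rose in KOa by 0.88 ± 0.41 (q = 0.0133), a 1.84-fold higher level, but with the deposited statistic read against a standard normal distribution q became 0.234 in KOa and 0.00998 in KOb. The level of Cpa3 for each FPKM of Mcpt8 was 0.400 in KOa, 0.469 in KOb and 0.160 in FFa, higher in both mutants where the Prss34 to Mcpt8 ratio was lower, and this difference was not tested either.

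**Figure D3:**
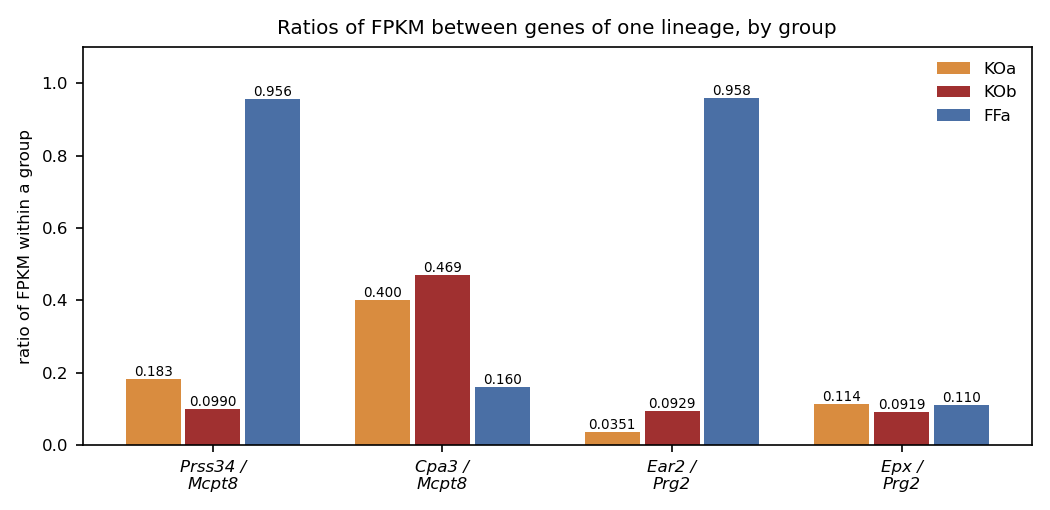
Ratio of FPKM within each group (linear axis from 0) between 2 mast cell and basophil genes or 2 eosinophil genes, for KOa, KOb and FFa, with 1 value per group. In a bulk sample such a ratio does not show that both transcripts come from the same cells. The Prss34 to Mcpt8 and Ear2 to Prg2 ratios are near 1 in FFa and below 0.2 in both mutants, the Cpa3 to Mcpt8 ratio is higher in the mutants, and the Epx to Prg2 ratio is 0.114, 0.0919 and 0.110.

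Ms4a2 and Fcer1a encode the beta and alpha chains of Fc-epsilon receptor I, the chain that amplifies the signal and the chain that binds IgE. Ms4a2 (chr19:11617193-11623643, mm10) had 0.261 FPKM in KOa and 0.240 FPKM in KOb and was listed at 0 in FFa, and none of its comparisons was tested. Fcer1a (chr1:173221271-173227229, mm10) had 0.160 FPKM in KOa, 0.480 FPKM in KOb and 0.304 FPKM in FFa. Both genes were below 1 FPKM in every group, and the levels of Fcer1a did not separate the mutants from the control. For Fcer1a the deposited log2 ratio in KOb against FFa was 0.66 ± 1.19 (95% interval -1.67 to 2.99, q = 0.626), an interval wide enough to hold either direction.

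Prg2 encodes eosinophil major basic protein, the chief protein of the eosinophil granule core, and lies at chr2:84980461-84983632 (mm10). It had the highest level of the eosinophil genes in all 3 groups, at 14.4 FPKM in KOa, 15.4 FPKM in KOb and 7.91 FPKM in FFa. The levels of both mutant groups lay close together and above the control. Prg2 rose in KOa by 0.86 ± 0.31 on the log2 scale (q = 0.00365) and in KOb by 0.96 ± 0.31 (q = 0.000619), in the authors' deposited table. With the standard normal reading the rise was called in KOb (q = 0.0320) but not in KOa (q = 0.0724).

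Epx encodes eosinophil peroxidase, a haem enzyme of the eosinophil granule (chr11:87863998-87875536, mm10). Its level was 1.63 FPKM in KOa, 1.41 FPKM in KOb and 0.866 FPKM in FFa. Both mutant groups were above the control, as for Prg2 at higher levels, and the Epx to Prg2 ratio was 0.114 in KOa, 0.0919 in KOb and 0.110 in FFa. Epx rose in KOa by 0.91 ± 0.50 (q = 0.0259 in the authors' deposited table), although the 95% interval from the implied standard error, -0.07 to 1.90, includes 0. In KOb the log2 ratio of Epx was 0.71 ± 0.51 (q = 0.103), which did not pass. The standard normal reading also ended the call in KOa (q = 0.367).

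The Ear genes encode eosinophil-associated ribonucleases, a family much expanded in the mouse. Ear2 (chr14:44102654-44103531, mm10) had 0.504 FPKM in KOa, 1.43 FPKM in KOb and 7.58 FPKM in FFa. Ear1 (chr14:43818765-43819639, mm10) had 0.373 FPKM in KOa, 0.127 FPKM in KOb and 2.53 FPKM in FFa. Both were high in the control and low in both mutants. Ear10 (chr14:43922898-43923368, mm10) was listed at 0 in all 3 groups.

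The calls on the Ear genes were uneven. Ear1 fell in KOa, with a log2 ratio of -2.76 ± 1.01 (q = 0.0473), and had a ratio of -4.31 ± 1.61 in KOb that did not pass (q = 0.162). Ear2 fell in KOb, with a ratio of -2.41 ± 0.74 (q = 0.000619), and had a ratio of -3.91 ± 0.96 in KOa that did not pass (q = 0.232), all in the authors' deposited table. For Ear2 the larger ratio, with the larger statistic of -4.07, thus has the larger p in the authors' deposited table (0.0939), while the statistic of -3.25 in KOb has p = 5e-05. Read against a standard normal distribution, Ear2 would be called in both mutants (q = 0.00177 in KOa and 0.0228 in KOb) and Ear1 in neither (0.0783 in KOa and 0.0877 in KOb).

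Some reads of these genes cannot be assigned to 1 gene with certainty. The annotated transcripts of Ear1 and Ear2 were 96.8% identical, and 158 of the 664 stretches of 50 bases in Ear1 (23.8%) occur unchanged in Ear2. For Ear10 and Ear2 the identity was 94.7%, with 27.7% of stretches shared, so a listed 0 for Ear10 does not show that the gene was silent. A joined entry of the table for Ear6 and Ear7 had 0.618 FPKM in KOa, 0.911 FPKM in KOb and 4.02 FPKM in FFa. It fell in KOb, by 2.14 ± 0.92 on the log2 scale (q = 0.00963), and did not pass in KOa (-2.70 ± 1.34, q = 0.151). A second joined entry, for Ear12 and Ear2, had 0.537 FPKM in KOa, was listed at 0 in KOb and FFa and was not tested. GENCODE M21 also places a long non-coding RNA on the opposite strand over Ear1 (AC154806.1) and over Ear2 (Gm49101), and no label says whether strand was used in counting.

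Ear2 and Prg2 are both eosinophil granule genes, and for each FPKM of Prg2 there was 0.0351 FPKM of Ear2 in KOa, 0.0929 in KOb and 0.958 in FFa. The difference between the log2 ratios of these genes was not tested, Ear2 did not pass the test in KOa, and the joined entry for Ear12 and Ear2 holds a further 0.537 FPKM there. Prss34, Ear2, Cpa3 and Prg2, which were each called in KOb, lie on chromosomes 17, 14, 3 and 2.

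KOb against KOa compares the 2 mutant populations, which differ in the TER119 gate as well as in the degree of deletion. Of the 10 genes 7 were tested and 0 were called in the deposited Cuffdiff test, where of all 10468 tested genes 1052 were called higher and 648 (6.19%) lower, 16.2% in either direction. At an unadjusted p below 0.05 in the authors' deposited table there was 1, Cpa3 (p = 0.0257), and the standard normal reading also called 0. Cpa3 had a log2 ratio of 0.52 ± 0.35 (95% interval -0.17 to 1.21, q = 0.0927), and Prss34 one of -0.60 ± 0.58 (-1.73 to 0.54, q = 0.289). Prg2 had the narrowest interval, with a ratio of 0.10 ± 0.30 (-0.48 to 0.68, q = 0.796). For Ear2 the ratio was 1.50 ± 1.13 (-0.72 to 3.72, q = 0.447), and for Fcer1a 1.58 ± 1.45 (-1.26 to 4.43, q = 0.309). The intervals do not show that the populations are alike for these genes.

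Genes lying close to the 10 were called in both directions. Within 100 kb of Prss34 the table lists 12 other genes, among them the mast cell tryptase genes Tpsab1, Tpsb2 and Tpsg1, none of which exceeded 0.205 FPKM in any group. Among the neighbours that reached 1 FPKM in a group, Unkl rose in KOa (1.34) and was not called in KOb, while Gnptg and 0610007P22Rik were called in neither. Ms4a6b, within 100 kb of Ms4a2, fell in both mutants, with log2 ratios of -2.73 in KOa and -1.90 in KOb. Ms4a3, another neighbour of Ms4a2, rose in both, with 9.14 FPKM in KOa, 12.97 FPKM in KOb and 2.51 FPKM in FFa and log2 ratios of 1.86 and 2.37. Within 100 kb of Mcpt8 there were 9 genes, mast cell proteases and granzymes, of which only Ctsg, the gene of cathepsin G, reached 1 FPKM. Prg3, the gene next to Prg2 that encodes a second form of major basic protein, had 1.84 FPKM in KOa, 2.48 FPKM in KOb and 0.738 FPKM in FFa and rose in KOb (1.75 ± 0.70, q = 0.0321). Epx has Mpo, the myeloperoxidase gene of neutrophil precursors, within 100 kb, and Mpo rose in both mutants, to 21.7 FPKM in KOa and 27.3 FPKM in KOb, against 8.15 FPKM in FFa.

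Connective tissue and mucosal mast cell proteases were close to absent. The highest value among 8 of them (Mcpt1, Mcpt2, Mcpt4, Mcpt9, Cma1, Tpsab1, Tpsb2 and Tpsg1) was 0.205 FPKM in KOa, 0.105 FPKM in KOb and 0.347 FPKM in FFa. Of 26 further mast cell genes, 15 stayed below 1 FPKM in all groups and 6 were listed at 0 in at least 1 group. In KOa 12 of them were tested, of which 3 rose and 3 fell (median log2 ratio 0.22), and in KOb 12 were tested, of which 3 rose and 2 fell (median -0.01). Over all tested genes 22.1% were called in either direction in KOa and 28.0% in KOb, with medians of -0.08 and -0.01. With 12 or fewer tested genes, nothing is read from the counts of this list or of the basophil and eosinophil lists that follow. Ctsg, a protease that mast cells share with neutrophil precursors, rose to 15.9 FPKM in KOa and 20.2 FPKM in KOb, against 3.35 FPKM in FFa, with log2 ratios of 2.24 ± 0.36 and 2.59 ± 0.36. Kit, the receptor of stem cell factor that mast cells and early progenitors carry, rose to 0.751 FPKM in KOa and 2.36 FPKM in KOb, against 0.399 FPKM in FFa. Its log2 ratio was 0.91 ± 0.54 in KOa and 2.57 ± 0.50 in KOb. Hdc, the histamine-forming enzyme of mast cells and basophils, fell to 1.53 FPKM in KOa and 1.66 FPKM in KOb, against 2.78 FPKM in FFa. Alox5ap, which leukotriene synthesis needs, fell to 12.98 FPKM in KOa and 12.7 FPKM in KOb, against 30.0 FPKM in FFa.

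Of 22 further basophil genes, 15 stayed below 1 FPKM in all groups, and the cytokine genes Il4, Il6 and Il13 were listed at 0 in at least 1 group. In KOa 12 were tested, of which 2 rose and 2 fell (median log2 ratio -0.26), and in KOb 12 were tested, of which 2 rose and 3 fell (median -0.50), again beside 22.1% and 28.0% of all tested genes. Itga2b, an integrin chain that basophil precursors share with megakaryocytes, rose to 3.76 FPKM in KOa and 4.55 FPKM in KOb, against 1.04 FPKM in FFa. The interferon-inducible gene Ifitm1 rose to 26.1 FPKM in KOa and 25.2 FPKM in KOb, against 11.0 FPKM in FFa. The chemokine gene Ccl9 fell to 1.09 FPKM in KOa and 1.23 FPKM in KOb, against 2.70 FPKM in FFa.

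Of 23 further eosinophil genes, 13 stayed below 1 FPKM in all groups. In KOa 12 were tested, of which 2 rose and 4 fell (median log2 ratio -0.18), and in KOb 11 were tested, of which 3 rose and 4 fell (median -0.37), beside the same shares over all tested genes. The entry Siglec5, whose position is that of the eosinophil lectin gene Siglecf in RefSeq, rose to 2.08 FPKM in KOa and 1.77 FPKM in KOb, against 0.192 FPKM in FFa, with log2 ratios of 3.44 ± 0.86 and 3.21 ± 0.86. Emr1, the F4/80 antigen of macrophages and eosinophils, fell to 0.755 FPKM in KOa and 0.705 FPKM in KOb, against 2.12 FPKM in FFa. Emr4, a related receptor, fell to 0.286 FPKM in KOa and 0.192 FPKM in KOb, against 1.01 FPKM in FFa. Like the 10 genes, the further genes of these lineages were called in both directions.

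**Figure D4:**
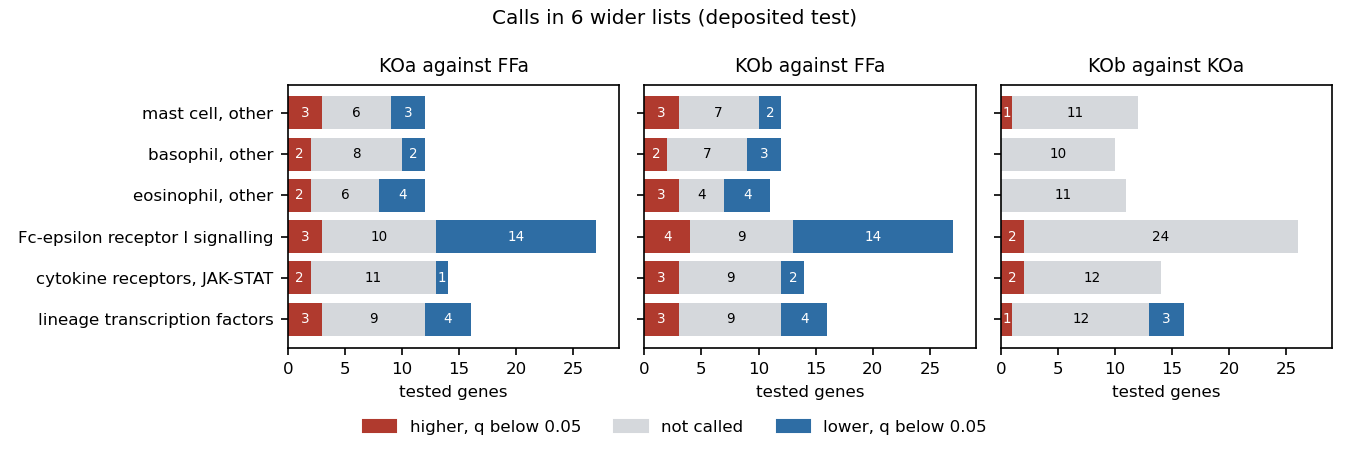
Number of tested genes (x axis) called higher (left), not called (middle) and called lower (right) at a deposited q below 0.05 in 6 lists of lineage, signalling and transcription factor genes, with a panel for each mutant against FFa and a further panel for KOb against KOa. In Fc-epsilon receptor I signalling 14 genes were called lower in each mutant, while the lineage lists hold calls in both directions.

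The signalling chain below Fc-epsilon receptor I was mostly lower as deposited. Of 28 listed genes 27 were tested in KOa, of which 3 rose and 14 fell, with a median log2 ratio of -0.82, and 27 in KOb, of which 4 rose and 14 fell, with a median of -0.64. Over all tested genes 14.1% fell in KOa and 15.2% in KOb, with medians of -0.08 and -0.01. Under the standard normal reading 1 rose and 9 fell in KOa and 1 rose and 8 fell in KOb. Rescaling to the sum without globin genes adds 0.54 to all log2 ratios in KOa and 0.51 in KOb. That makes both medians of this list less negative, and calls were not remade on that scale. Fcer1g, the gamma chain that this receptor shares with Fc-gamma receptors, fell to 63.3 FPKM in KOa and 48.0 FPKM in KOb, against 112 FPKM in FFa. Syk, the kinase that binds the phosphorylated gamma chain, fell to 1.48 FPKM in KOa and 1.64 FPKM in KOb, against 5.69 FPKM in FFa. Lyn, the kinase that starts the cascade, fell to 0.845 FPKM in KOa and 1.19 FPKM in KOb, against 2.54 FPKM in FFa. The adaptor gene Grap2 fell to 4.52 FPKM in KOa and 3.19 FPKM in KOb, against 13.9 FPKM in FFa. Gab2, an adaptor of the same receptor, rose to 2.28 FPKM in KOa and 3.14 FPKM in KOb, against 0.917 FPKM in FFa. Most of these genes also act in neutrophils, macrophages and B cells.

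Many markers of those cells were called lower as well. In KOa 10 of 21 tested neutrophil genes, 11 of 20 macrophage and monocyte genes and 15 of 19 B cell genes fell, and in KOb 12 of 21, 18 of 19 and 17 of 19 fell. For every list in this paragraph, the shares over all tested genes were 14.1% lower and 7.99% higher in KOa. In KOb these shares were 15.2% lower and 12.8% higher. Macrophage and monocyte genes summed to 172 FPKM in KOa, 141 FPKM in KOb and 459 FPKM in FFa, and B cell genes to 31.1 FPKM in KOa, 28.1 FPKM in KOb and 286 FPKM in FFa. The only neutrophil genes that rose, Ctsg and Mpo, are made by early precursors. Elane and Prtn3, on the same list, were called higher in neither mutant. Of 10 tested megakaryocyte genes 4 rose and 1 fell in KOa, and 4 rose and 2 fell in KOb. All listed megakaryocyte genes summed to 72.8 FPKM in KOa, 60.4 FPKM in KOb and 40.5 FPKM in FFa. Of T and NK cell genes 1 rose and 3 fell of 13 tested in KOa, and 1 rose and 7 fell of 12 in KOb, and of stem and early progenitor genes 1 rose and 3 fell of 11 in KOa, and 3 rose and 3 fell of 13 in KOb. The part of these cell types in the values of the 10 genes, or of the Fc-epsilon receptor I signalling genes, was not tested.

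Of the cytokine receptors of the 3 lineages and their JAK-STAT transducers, 14 of 15 genes were tested in KOa, of which 2 rose and 1 fell, and 14 in KOb, of which 3 rose and 2 fell. Over all tested genes 22.1% were called in KOa and 28.0% in KOb, near the shares of this short list, so nothing is read from these counts. Csf2rb, the common chain of the IL-3, IL-5 and GM-CSF receptors, had 3.48 FPKM in KOa, 3.24 FPKM in KOb and 3.20 FPKM in FFa. Il5ra, the receptor chain on which eosinophils depend, was below 0.1 FPKM in all groups and was not tested. Il1rl1, the IL-33 receptor of mast cells and basophils, had 5.31 FPKM in KOa, 4.78 FPKM in KOb and 4.07 FPKM in FFa and was not called. Il4ra rose to 3.35 FPKM in KOa and 2.77 FPKM in KOb, against 1.45 FPKM in FFa. Stat5a, a transducer of these receptors, had 1.30 FPKM in KOa and rose in KOb to 3.53 FPKM, against 1.51 FPKM in FFa.

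Of the transcription factors that direct these lineages 16 of 19 were tested in each mutant, with 3 higher and 4 lower in KOa and the same numbers in KOb, against 22.1% and 28.0% of all tested genes called in either direction. Gata1, which erythroid cells need as well, had 138 FPKM in KOa, 105 FPKM in KOb and 118 FPKM in FFa, and Gata2 had 1.01 FPKM in KOa, 0.939 FPKM in KOb and 0.665 FPKM in FFa, none of them called. Cebpe, needed for eosinophil and neutrophil granules, had 2.69 FPKM in KOa, 2.39 FPKM in KOb and 3.12 FPKM in FFa and was not called. Irf8, a factor of monocytes that basophil and mast cell progenitors also need, fell to 0.964 FPKM in KOa and 0.614 FPKM in KOb, against 7.16 FPKM in FFa (log2 ratios of -2.89 ± 0.42 and -3.54 ± 0.49). Cebpb fell to 0.889 FPKM in KOa and 0.876 FPKM in KOb, against 3.14 FPKM in FFa, and Cebpa, required for granulocytes, to 0.391 FPKM in KOa and 0.546 FPKM in KOb, against 1.25 FPKM in FFa. Mitf, the mast cell factor, was below 0.21 FPKM in every group and was not tested.

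By the distance of centred log2(FPKM + 1) values over the 3 groups, the genes most like Mcpt8 among 4579 genes compared included Akt1 (distance 0.00682) and Ddx27 (0.0115). Those most like Prg2 were Gnl2 (0.0221), Obfc2b (0.0314) and 5430417L22Rik (0.0346). With 3 points, such closeness describes the pattern and no more.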

How the data were processed

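RNA was extracted with the QIAGEN RNeasy Mini Kit with DNase treatment on the column, and libraries were made with the NuGEN Encore Complete RNA-Seq system, per the labels' protocols. Reads were processed with TopHat2 2.0.8b, Bowtie2 2.1.0 and Cuffdiff 2.1.1 on mm10, per the submitters' processing notes. For the annotation, strand setting, filters and library scaling, nothing is given in the sources used here. The deposited table gives, for each of 23285 genes and 3 comparisons, the FPKM of both groups, a log2 ratio, a test statistic (a score with no fixed range), a p-value and a q-value, all made by the authors from the 3 libraries of a group together. It holds no value per library, so no spread between libraries, leave-one-out value or depth could be had, and FPKM carries no counts.

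The deposited ratio is that of the FPKM values in all 22 tested results of the 10 genes, within 0.01. The deposited q equals a Benjamini-Hochberg adjustment over the 31813 tested results of the 3 comparisons together. Calls use q below 0.05 among tested results. The standard error is the ratio divided by the statistic. Deposited starts count from 0 and were raised by 1. Alternatives were the statistic read as standard normal, adjustment within a comparison, a minimum FPKM of 1 or 5, log2(FPKM + 1) and log2(FPKM + 0.1), 2 other scalings, and leaving out Ear1, Ear2 and Ear10. The Benjamini-Hochberg adjustment and calling under a standard normal reading were tested on simulated ratios, and the identity measure on short made-up sequences. The simulated errors were themselves normal, with the implied standard error capped at 1. The simulation thus checks the calculation and cannot show that the normal reading suits the deposited statistic. The deposited Cuffdiff test and the other steps were not simulated. From each further list the text names up to 3 called genes of largest ratio with at least 1 FPKM in the higher group, or the 2 of highest level, and others chosen after their values were seen (Fcer1g, Csf2rb, Il5ra, Il1rl1, Gata1, Gata2, Cebpe, Mitf, Mpo and neighbouring genes). Spi1 was matched as Sfpi1 through RefSeq synonyms. Some genes that the rules would name are not reported here. The 10 genes and all 13 further lists were chosen with earlier results of these data known. Python 3.11.15, pandas 2.3.3, numpy 2.4.6, scipy 1.17.1 and Biopython 1.88 were used. Transcript and promoter sequences came from GENCODE M21 and RefSeq (GRCm38.p6).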

Additional observations from a re-analysis of the deposited data

Results flagged for a closer look

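The deposited comparison of KOb with KOa tests the difference between the mutant populations directly, and it called 5 named genes of the wider lists. The naming rule picks called genes, so their number says nothing about the lists. Of all 10468 tested genes 16.2% were called there in either direction. Calls were made for 2 of 26 tested Fc-epsilon receptor I signalling genes, 2 of 14 receptor genes and 1 of 12 mast cell genes. Of 16 transcription factors 1 was higher and 3 lower, and of 10 basophil and 11 eosinophil genes 0 were called. The deposited log2 ratios of the 5 named genes were 1.66 for Kit, 1.44 for Stat5a, 0.58 for Btk, -0.78 for Zfpm1 and -0.56 for Sfpi1, the gene of PU.1. None of the 10 granule and receptor genes was called there. The TER119 gate differs between these populations along with the degree of deletion, and the part of each was not tested. With the deposited statistic read against a standard normal distribution, Btk (q = 0.409), Sfpi1 (q = 0.341) and Zfpm1 (q = 0.0805) were no longer called.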

How the results depend on the processing

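In KOa against FFa 5 of the 10 genes were called as deposited, and 2 (0 higher, 2 lower) with the statistic read as standard normal, which ended the calls of Cpa3, Prg2, Epx and Ear1 and gained Ear2. It was also 2 (1 higher, 1 lower) with at least 5 FPKM in a group, which leaves fewer genes. The count for KOb was 4 against FFa and 0 against KOa, and both stayed within 1.5 times under the alternatives run, and adjustment within a comparison ended no call among the 10. The median log2 ratio of the tested genes in KOa was -0.44 as deposited, 0.10 with groups rescaled to their sums without globin, and 0.86 without Ear1, Ear2 and Ear10. Centred on the median of genes at FPKM 1 or more, the median log2 ratio was -0.39 in KOa and 0.24 in KOb. In KOb it was 0.25 as deposited, 0.76 with that rescaling, 0.02 on the log2(FPKM + 1) scale and 0.68 without the Ear genes, and its sign turned, to -0.15, with at least 1 FPKM in a group. For further named genes 77 results were compared, many of which were not called as deposited and so had no call to lose. The standard normal reading ended the call in 18 results, among them Hdc and Cebpa in both mutants, Kit and Emr4 in KOa, and Prg3, Ccl9, Lyn and Il4ra in KOb. It also took the calls from 6 to 3 for mast cell, 6 to 2 for eosinophil, 7 to 2 for transcription factor, 2 to 0 for erythroid, 5 to 3 for megakaryocyte and 4 to 2 for stem and early progenitor genes in KOa, and from 5 to 2 for basophil, 7 to 4 for eosinophil, 5 to 2 for receptor, 7 to 4 for transcription factor, 7 to 2 for erythroid, 8 to 3 for T and NK cell and 6 to 2 for stem and early progenitor genes in KOb. A minimum of 5 FPKM, which leaves fewer genes, moved 27 list counts by over 1.5 times and left 12 within that range, and of macrophage and monocyte genes it left 4 of 11 calls in KOa and 7 of 18 in KOb. No called ratio of the 10 genes or among those 77 results changed sign under the scale and globin alternatives. These were not run for Fcer1g, Unkl, Ms4a3, Ms4a6b and Mpo. Genes below 1 FPKM, among them Fcer1a and Ms4a2, are limited by depth, which is unknown. No paired analysis was possible because the table holds 1 value per group and none per library, and leaving out a library was not run for that reason.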
